A study of Bos grunniens with 18 samples.

Results

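The testis of the yak (Bos grunniens) was profiled at 3 ages, and 31 genes that build cholesterol, control its synthesis, or take it up and move it are described here. They were picked by symbol from a table of 22183 genes and fall into 3 roles. These are 19 synthesis enzymes, 5 genes of the sterol regulatory element-binding proteins (SREBPs) and their control, and 7 genes of uptake and transport. The 5 are called SREBP regulators below, though SREBF1 and SREBF2 encode the SREBPs themselves. All 31 passed the filter on low counts, among 16742 genes that did. FDPS stands on a second identifier with no counts, and the identifier with counts was used.

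Animals were healthy males kept by 1 cooperative, 9 in all, and their testes were removed surgically under anaesthesia. There were 3 animals of 6 months, 3 of 18 months and 3 of 4 years, shortened below to Y6M, Y18M and Y4Y where a single library is named. RNA came from whole tissue, so fewer cells of a type and less RNA per cell cannot be told apart. Each animal gave 1 ribosomal RNA-depleted library, for genes and circular RNAs, and 1 small RNA library, for microRNAs. Ages were taken from the sample titles. Another label contradicts them, in that it gives the stage of the Y4Y samples as infancy, that of Y6M as adolescence and that of Y18M as adulthood, and it was left aside.

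Cholesterol is made from acetyl-CoA through mevalonate, isoprenoid pyrophosphates, squalene and lanosterol. When sterols are low in the endoplasmic reticulum, SCAP escorts the SREBPs to the Golgi, where they are cut and released to switch on the enzyme genes; INSIG proteins hold SCAP back when sterols are plentiful. In the testis, Leydig cells turn cholesterol into androgens, Sertoli cells handle lipoproteins and the lipid of engulfed germ cell remnants, and germ cells make sterol intermediates of their own.

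Gene libraries held 22950630 to 33123856 estimated counts. Levels below are CPM, counts scaled with TMM to a library of 1000000 counts of tested genes, given per library or as mean ± SD with n = 3 per age, and changes are log2 fold changes ± SE. Calls are Benjamini-Hochberg adjusted p values under 0.05 over all genes tested, from 1 edgeR quasi-likelihood fit of the 9 libraries. Scaling by library size alone raised the median log2 fold change of all genes by 0.40 at 18 months and by 0.29 at 4 years. The share of calls that were higher than at 6 months was then 72.6% in place of 54.7% at 18 months, and 58.3% in place of 49.7% at 4 years. The 18-month library of replicate 2 stood apart from the other two: a list of 8 spermatid markers summed to 127 CPM there, against 1949 and 791 CPM in replicates 1 and 3, at most 4.34 CPM at 6 months and at least 2132 CPM at 4 years.

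Most of these genes were lower at 18 months and 4 years than at 6 months. At 18 months 22 of the 31 fell, none rose, by edgeR at an adjusted or unadjusted p under 0.05 or by DESeq2, and 9 did not pass the test, where 27.1% of all genes tested fell and 32.7% rose. The median log2 fold change of the 31 was -2.07, against 0.02 over all genes tested. At 4 years 22 fell, MVK rose and 8 did not pass, where 37.2% of all genes fell and 36.7% rose. The median was -2.35, against -0.06 over all genes. The 2 comparisons share the 6-month libraries. With library size alone, 19 fell and 2 rose at 18 months, where 15.6% of all genes fell and 41.4% rose. At 4 years 21 then fell and 2 rose, where 29.9% of all genes fell and 41.8% rose.

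**Figure D1:**
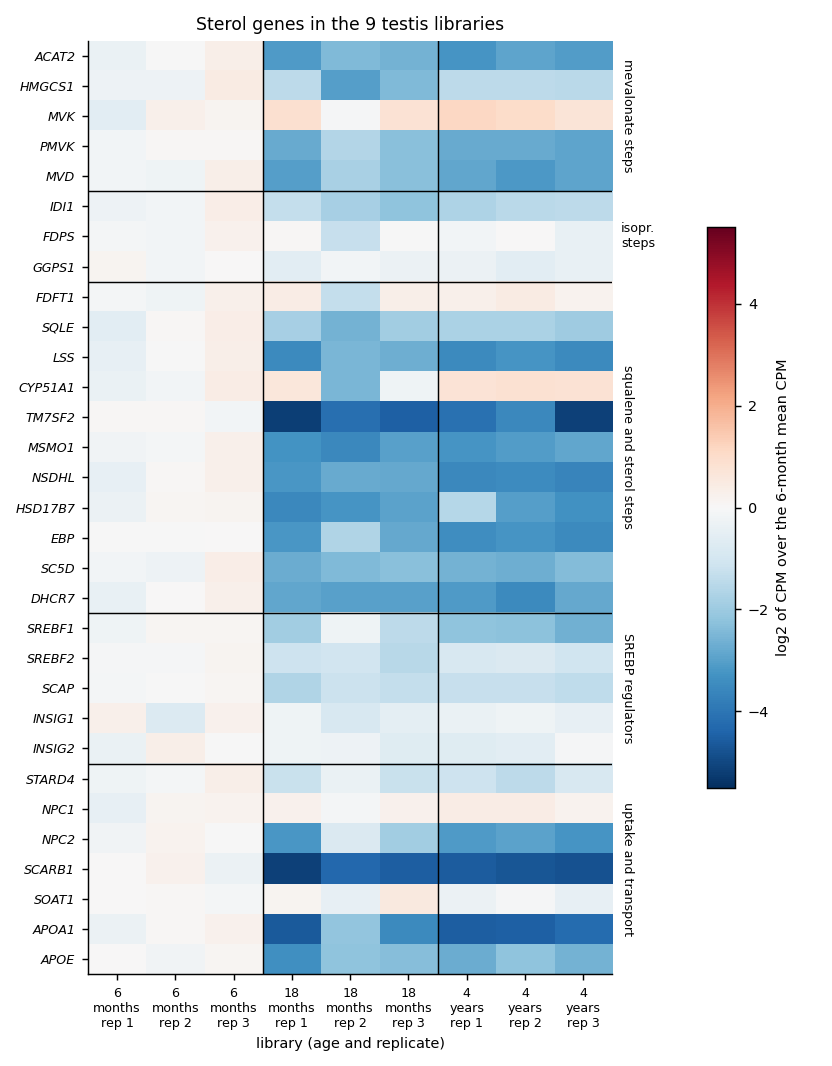
Each row is 1 of the 31 genes, grouped by step, and each column 1 of the 9 libraries; colour gives the log2 of the gene's CPM over its mean CPM at 6 months, blue lower and red higher. Most rows turn blue at both later ages, while MVK, FDPS, FDFT1, CYP51A1, NPC1 and SOAT1 stay pale or turn light red, with Y18M replicate 2 bluer than its neighbours in HMGCS1, FDPS, FDFT1, SQLE and CYP51A1.

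Of the 5 mevalonate genes, 4 fell in both comparisons. ACAT2 (ENSBTAG00000002827), the cytosolic thiolase that joins acetyl-CoA units, stood at 196, 251 and 315 CPM in the 6-month libraries, at 29.1, 47.3 and 42.5 CPM at 18 months and at 26.7, 34.2 and 30 CPM at 4 years. No later library came near the 6-month range. Its log2 fold changes were -2.68 ± 0.26 (adjusted p = 8.89e-05) at 18 months and -3.07 ± 0.26 (4.12e-05) at 4 years. In the yak RefSeq annotation ACAT2 overlaps the chaperonin gene TCP1, and reads of the overlap cannot be assigned without strand, whose use in counting is not given in the sources used here.

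HMGCS1 (ENSBTAG00000011839), which makes HMG-CoA, stood at 366, 365 and 607 CPM at 6 months, at 163, 54.2 and 83.5 CPM at 18 months and at 164, 165 and 160 CPM at 4 years. The 4-year libraries lay close together and well below the 6-month ones, and Y18M replicates 2 and 3 lay below both other ages. The changes were -2.16 ± 0.40 (adjusted p = 0.00169) and -1.45 ± 0.39 (0.00783). PMVK and MVD, the kinase and decarboxylase that turn mevalonate phosphate into isopentenyl pyrophosphate, fell at 18 months with log2 fold changes of -2.15 ± 0.28 and -2.30 ± 0.31 (adjusted p = 0.00032 and 0.000416). At 4 years their changes were -2.81 ± 0.29 and -2.96 ± 0.32 (7.38e-05 and 9.71e-05).

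MVK (ENSBTAG00000005183), the kinase between those steps, was the 1 mevalonate gene that did not fall. It stood at 30.7, 56.7 and 52.2 CPM at 6 months, at 84.4, 44.5 and 81.6 CPM at 18 months and at 103, 94.0 and 76.9 CPM at 4 years. All 4-year libraries lay above the 6-month ones, and among 18-month libraries only replicate 2 lay within their range. It rose by 0.97 ± 0.31 at 4 years (adjusted p = 0.0174), and its change of 0.59 ± 0.30 at 18 months did not pass (0.12). The 4-year call was lost without Y6M replicate 1 (0.75, adjusted p = 0.0587) and without Y4Y replicate 1 (0.88, 0.0555), and the 18-month change passed without Y18M replicate 2 (0.96, 0.00571).

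Of the 3 isoprenoid genes, IDI1 (ENSBTAG00000004075), the isomerase of isopentenyl pyrophosphate, was the one that fell, from 40.9 ± 9.77 CPM to 12.3 ± 3.95 at 18 months (-1.73 ± 0.27, adjusted p = 0.000799) and 14.0 ± 1.21 at 4 years (-1.54 ± 0.27, 0.000883). FDPS (ENSBTAG00000003948), which makes the farnesyl pyrophosphate shared by sterols and prenylated proteins, stood at 199, 191 and 252 CPM at 6 months and at 192, 219 and 163 CPM at 4 years. At 18 months it stood at 225, 88.6 and 211 CPM, so replicate 2 alone lay below every other library. FDPS did not pass in either comparison (-0.29 ± 0.33 and -0.16 ± 0.33, adjusted p = 0.463 and 0.664). GGPS1 (ENSBTAG00000013068), which makes geranylgeranyl pyrophosphate, ranged from 21.9 to 26.9 CPM at 6 months and from 16.3 to 19.5 CPM at 4 years. Its changes of -0.33 ± 0.18 and -0.43 ± 0.18 did not pass (adjusted p = 0.148 and 0.0557), and the second passed without Y18M replicate 1 (-0.43, 0.0387). It overlaps ARID4B, as NPC1 below overlaps RMC1.

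Of the 11 squalene and sterol genes, 9 fell in both comparisons. TM7SF2 (ENSBTAG00000005069), a sterol reductase that acts just after lanosterol demethylation, stood at 71.8, 72.4 and 61.5 CPM at 6 months, at 1.89, 3.90 and 3.02 CPM at 18 months and at 3.95, 5.87 and 1.98 CPM at 4 years. That is 23.3-fold lower at 18 months (log2 -4.54 ± 0.43, adjusted p = 8.89e-05) and 17.4-fold lower at 4 years (-4.12 ± 0.42, 7.76e-05), the widest change among the 19 enzymes in both comparisons. MSMO1 (ENSBTAG00000003068), the methylsterol oxidase, went from 281, 303 and 389 CPM to 33, 27.9 and 40.7 CPM and then to 33.9, 38 and 44.8 CPM, with no overlap between 6 months and either later age. Its changes were -3.26 ± 0.23 and -3.06 ± 0.23 (4.61e-05 and 3.53e-05).

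LSS, which closes squalene epoxide to lanosterol, fell with log2 fold changes of -2.85 ± 0.30 and -3.41 ± 0.31 (adjusted p = 0.000132 and 4.95e-05). NSDHL, a sterol dehydrogenase, changed by -2.91 ± 0.23 and -3.55 ± 0.24 (5.64e-05 and 3.24e-05). EBP (ENSBTAG00000009287), the sterol isomerase, stood at 46.4 to 49.2 CPM at 6 months and at 4.16 to 5.07 CPM at 4 years, with 5.14, 15.1 and 6.84 CPM between them at 18 months. It was 5.30-fold lower at 18 months and 10.4-fold lower at 4 years (adjusted p = 0.000695 and 0.000114). SC5D, a sterol desaturase, changed by -2.46 ± 0.22 and -2.55 ± 0.22, and DHCR7, the reductase of the last step, by -2.93 ± 0.24 and -3.12 ± 0.25 (adjusted p from 3.8e-05 to 7.72e-05).

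SQLE (ENSBTAG00000005498), the squalene epoxidase that is a control point of the pathway, stood at 181 ± 55.8 CPM at 6 months, at 51.5, 30 and 47.9 CPM at 18 months and at 54.8, 53.7 and 47.1 CPM at 4 years. The ages did not overlap with 6 months, where replicate 3 was the highest at 233 CPM, and the changes were -2.07 ± 0.29 and -1.80 ± 0.28 (adjusted p = 0.000433 and 0.000495). HSD17B7 (ENSBTAG00000005976), a keto-sterol reductase, was uneven at 4 years, with 19.6, 7.13 and 5.86 CPM in replicates 1 to 3, against 46.9 to 65.2 CPM at 6 months. It changed by -3.23 ± 0.46 at 18 months and by -2.43 ± 0.45 at 4 years (adjusted p = 0.000503 and 0.00112), and the latter was -3.16 without Y4Y replicate 1 (0.000307). In Y4Y replicate 1 its length-scaled level, given below with SREBF2, lay above the 6-month ones.

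FDFT1 and CYP51A1 did not pass in either comparison. FDFT1 (ENSBTAG00000012432), squalene synthase, the first enzyme committed to sterols, stood at 246, 224 and 319 CPM at 6 months, at 352, 106 and 327 CPM at 18 months and at 320, 357 and 300 CPM at 4 years. Apart from Y18M replicate 2, the later libraries lay at the top of the 6-month range or above it. Its change was -0.01 ± 0.39 at 18 months and 0.31 ± 0.39 at 4 years (adjusted p = 0.986 and 0.49). CYP51A1 (ENSBTAG00000001992), the lanosterol demethylase, whose messenger RNA is known to be abundant in haploid germ cells of rat and mouse, stood at 114, 132 and 194 CPM at 6 months, at 226, 26 and 123 CPM at 18 months and at 244, 259 and 258 CPM at 4 years. The 4-year libraries lay above all at 6 months, and Y18M replicate 2 lay far below every other library. The changes were -0.23 ± 0.59 and 0.79 ± 0.60 (0.749 and 0.253).

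Leaving out Y18M replicate 2 changed these calls. FDFT1 was then higher at 18 months (0.49, adjusted p = 0.0306) and at 4 years (0.43, 0.0294), and CYP51A1 was higher at 4 years (0.92, 0.00801) with a change of 0.37 at 18 months that did not pass (0.257). In all, 3 of the 31 then rose at 18 months and 4 at 4 years, where 38.3% and 40.9% of all genes rose. A fit of the 6-month and 4-year libraries alone also gave 4 that rose, where 42.1% of all genes did, with CYP51A1 at 0.91 (0.00128) and FDFT1 at 0.43 (0.021). Y18M replicate 2 lay below all 6-month and 4-year libraries in 8 of the 31 genes, replicate 1 in 9 and replicate 3 in 3. Over all genes tested these shares were 10.4%, 13.9% and 7.41%. Of the 8 genes of replicate 2, HMGCS1, IDI1, FDPS, FDFT1, SQLE, CYP51A1 and MSMO1 are synthesis enzymes and the other is INSIG1, and the 9 of replicate 1 are TM7SF2, MSMO1, HSD17B7, SC5D, SREBF2, SCAP, SCARB1, APOA1 and APOE.

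**Figure D2:**
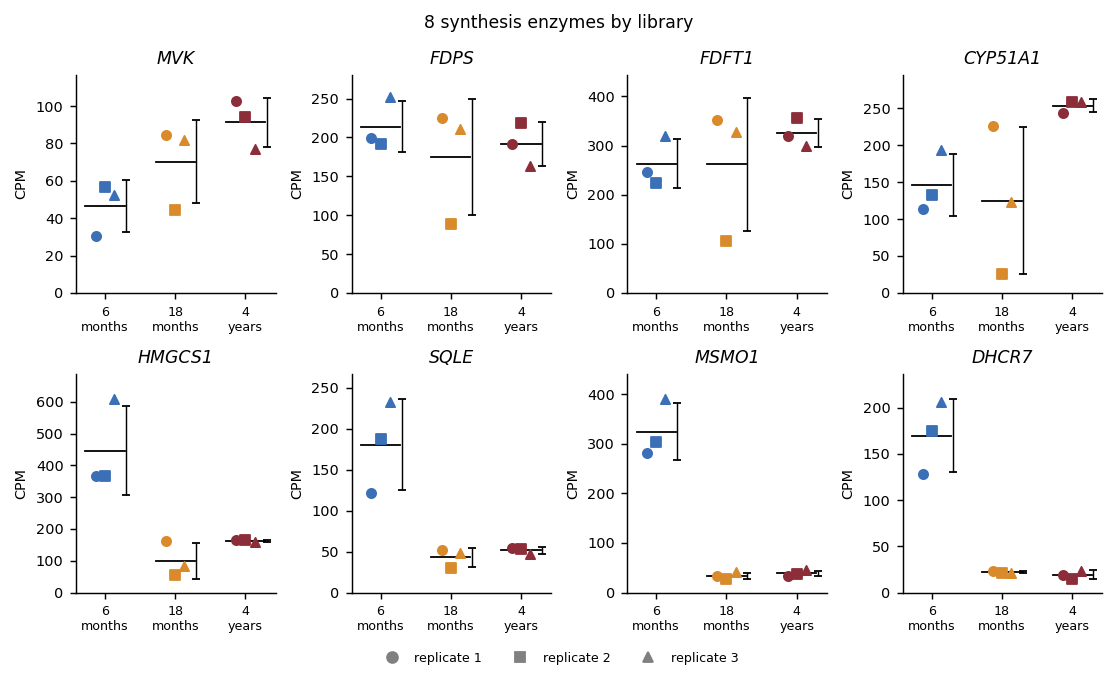
CPM of 8 synthesis enzymes in every library, with 1 point per animal, marker shape for the replicate number, a bar at the mean and an SD whisker (n = 3 per age). HMGCS1, SQLE, MSMO1 and DHCR7 sit lower at both later ages, while MVK, FDPS, FDFT1 and CYP51A1 do not, and Y18M replicate 2 (orange square) is the lowest 18-month point in all panels but DHCR7.

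Per length, the 4 enzymes with the least decline, or a rise, made up more of the pathway's messenger RNA at the later ages. MVK, FDPS, FDFT1 and CYP51A1, chosen after their values were seen, made up 29.8%, 27.2% and 27.5% of the summed FPKM (the fragments of a gene scaled by transcript length and library size) of the 19 enzymes at 6 months. They made up 70.5%, 48.5% and 70.1% at 18 months and 66.5%, 70.4% and 66.4% at 4 years. The summed FPKM of all 19 was 833, 945 and 1168 at 6 months, 624, 319 and 577 at 18 months and 617, 635 and 608 at 4 years. These are descriptions with no test, since the 4 genes were picked on the same values. By mean FPKM, the order among all 31 genes also moved. FDFT1 was ninth at 6 months (96.5 ± 14.9) and second at 4 years (153 ± 10.1), CYP51A1 went from rank 13 (41.0 ± 10.5) to rank 5 (94.0 ± 5.84), and MVK from rank 24 (18.1 ± 5.57) to rank 7 (45.6 ± 4.74). MSMO1 went from rank 5 (130 ± 18.9) to rank 10 (20 ± 3.80), and SCARB1 from rank 4 (170 ± 38.0) to rank 21 (8.42 ± 0.316).

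**Figure D3:**
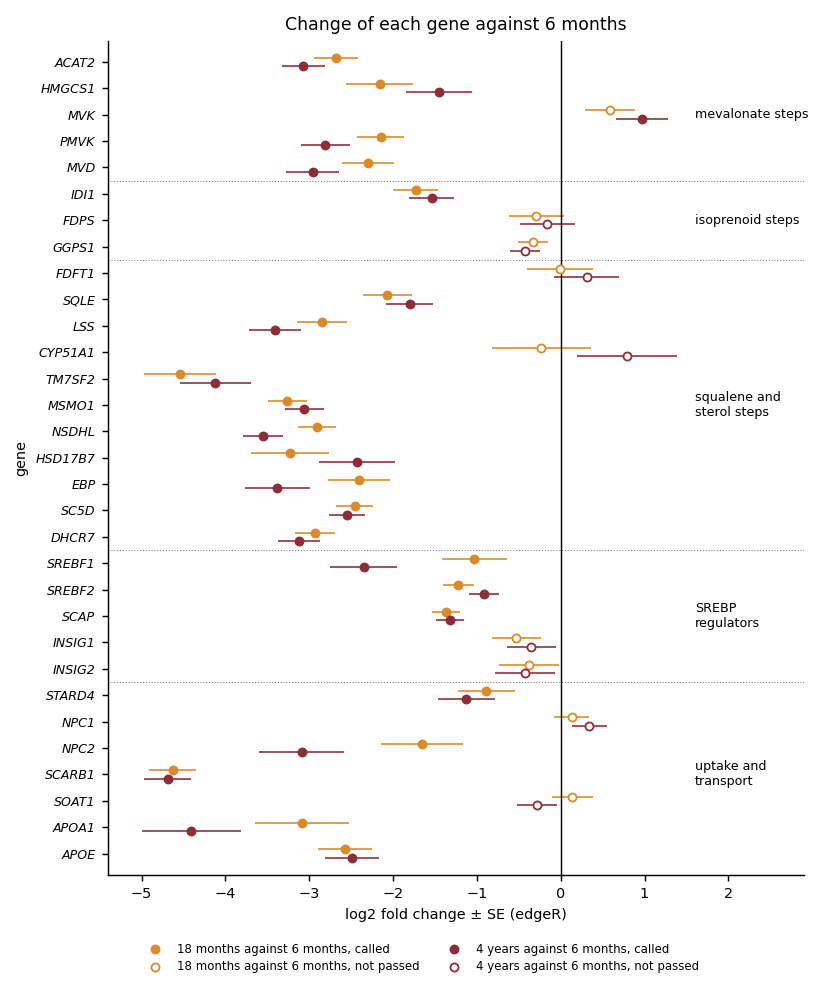
Log2 fold change ± SE of each gene at 18 months (orange) and 4 years (dark red) against 6 months, by step, from edgeR; filled points passed at an adjusted p under 0.05 and open points did not. Filled points lie left of 0 except MVK at 4 years, and SCARB1 and TM7SF2 lie farthest left at 18 months, and SCARB1 and APOA1 at 4 years.

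Among the 5 SREBP regulators, SREBF1, SREBF2 and SCAP fell and the INSIG genes did not pass. SREBF1 (ENSBTAG00000007884), the SREBP that mainly serves fatty acid synthesis, stood at 108, 136 and 136 CPM at 6 months, at 33.3, 107 and 46.6 CPM at 18 months and at 27.2, 26.9 and 20.3 CPM at 4 years. Y18M replicate 2 lay just under the 6-month range and the other 18-month libraries nearer to the 4-year ones. It changed by -2.35 ± 0.40 at 4 years (adjusted p = 0.00075). At 18 months it changed by -1.03 ± 0.39 (0.0443), a call that was lost when any library but Y18M replicate 2 was left out (log2 fold changes from -1.13 to -0.72, adjusted p from 0.0598 to 0.142), with library size alone (-0.59, 0.242) and in the fit of 6 libraries (-1.01, 0.0862).

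SREBF2 (ENSBTAG00000014265), the SREBP that mainly drives cholesterol synthesis, stood at 87.3, 88.1 and 101 CPM at 6 months, at 42.5, 44.3 and 32.4 CPM at 18 months and at 50.7, 52.5 and 43.2 CPM at 4 years. The later ages did not overlap with 6 months, and it changed by -1.22 ± 0.18 and -0.92 ± 0.18 (adjusted p = 0.000538 and 0.00137). SCAP (ENSBTAG00000015782), the escort, went from 198 ± 14.9 CPM to 63, 86 and 80.3 CPM and to 81.6, 81.8 and 74.6 CPM (-1.37 ± 0.17 and -1.32 ± 0.17, 0.000254 and 0.000183). SCAP overlaps ELP6 in the RefSeq annotation. SREBF2, HSD17B7 and SCARB1 overlap long noncoding RNA genes there, NSDHL a pseudogene and NPC2 a small nuclear RNA gene.

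INSIG1 (ENSBTAG00000001592) ranged from 33.6 to 68.2 CPM at 6 months, with the lowest value in replicate 2, and from 30.4 to 48.5 CPM over the later ages. Its changes of -0.53 ± 0.29 and -0.35 ± 0.29 did not pass (adjusted p = 0.14 and 0.288), but passed without Y6M replicate 2 (-0.79 and -0.61, 0.0199 and 0.0391). INSIG2 (ENSBTAG00000002112) was low in every library, at 1.26 to 2.51 CPM, with changes of -0.38 ± 0.36 and -0.43 ± 0.36 (0.381 and 0.303).

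For SREBF2 the deposited count and the deposited FPKM moved differently. Its mean FPKM was 15.3 ± 0.866 at 6 months, 12.7 ± 1.12 at 18 months and 17.6 ± 0.884 at 4 years, while its CPM fell. By the definition of FPKM, a count divided by it is proportional to the transcript length it was scaled by, once libraries are aligned on the value most genes share. For SREBF2 this quotient was 144, 139 and 143 at 6 months, 91.3, 124 and 82.4 at 18 months and 87.3, 83.1 and 78.7 at 4 years. The later libraries lay below the 6-month ones, with Y18M replicate 2 between, and the 4-year mean was lower by 0.77 on the log2 scale. DHCR7 went from 89.6 ± 0.324 to 53.5 ± 4.93 (-0.75) and HSD17B7 from 68.7 ± 0.139 to 31.6 ± 13.4 (-1.22). The FPKM of HSD17B7 was 16.1, 22.4 and 21.5 at 6 months and 31.7, 4.69 and 5.79 at 4 years. By FPKM, Y4Y replicate 1 thus lay above every 6-month library, while by CPM it lay below them.

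In 25 of the 31 genes, SCAP, NSDHL, SREBF1 and SCARB1 among them, the quotient moved by 0.1 or less on the log2 scale between 6 months and 4 years, as it did in 71% of all genes with a value. Of the 31, 3 were lower by 0.5 or more at 4 years, where 7.78% of 11235 genes with enough counts were, so their share lay near the background. This readout was added after the data were seen and carries no test. Rat and mouse spermatogenic cells are known to make a shortened SREBF2 transcript; whether another transcript form entered here was not tested.

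**Figure D4:**
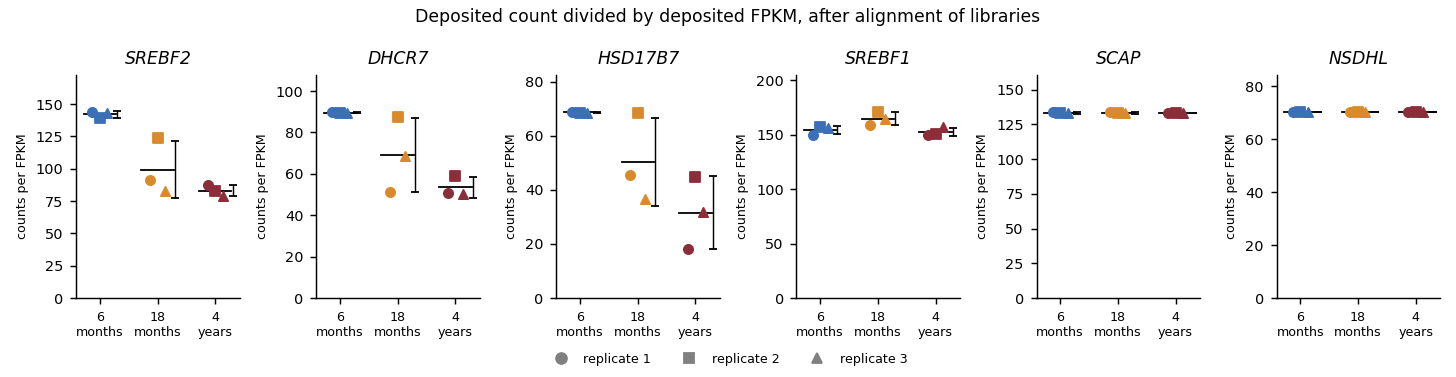
Deposited count divided by deposited FPKM for 6 genes in each library, after alignment of libraries, with marker shape for the replicate number, mean bar and SD whisker (n = 3 per age). SREBF2, DHCR7 and HSD17B7 are lower at 4 years and spread at 18 months, while SREBF1, SCAP and NSDHL keep nearly 1 value.

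Small RNA libraries measured microRNAs that are known from human or mouse to act on these genes. In human and mouse miR-33a lies in an intron of SREBF2 and, in human, miR-33b in an intron of SREBF1, and both dampen cholesterol export and NPC1. In mouse, SREBF2 switches on the cluster that holds miR-96 and miR-182, miR-182 represses FBXW7 and miR-96 represses INSIG2. In human cells miR-96 and miR-185 repress SCARB1. The mature sequences below show which of them share a seed, bases 2 to 8 in capitals, written with T as deposited.
bta-miR-33a: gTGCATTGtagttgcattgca
bta-miR-33b: gTGCATTGctgttgcattgc
bta-miR-96: tTTGGCACtagcacatttttgct
bta-miR-182: tTTGGCAAtggtagaactcacact
bta-miR-185: tGGAGAGAaaggcagttcctga
bta-miR-148a: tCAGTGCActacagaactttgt
The 2 forms of miR-33 share the seed TGCATTG, whereas miR-96 and miR-182 have the related but not identical seeds TTGGCAC and TTGGCAA, and miR-185 and miR-148a have seeds of their own.

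Of 31 listed forms of these and related microRNAs, 24 were tested. At 18 months 11 rose and 3 fell, where 255 of 881 microRNAs rose and 202 fell (51.9% either way). At 4 years 15 rose and 3 fell, where 316 rose and 261 fell (65.5% either way). Some of the 24 are length variants of the same microRNA, such as miR-182 and miR-182-x, and were counted separately. None of the 24 was called by edgeR between 4 years and 18 months, where 9.53% of all were, nor by DESeq2, and 0 had an unadjusted p under 0.05. Without Y18M replicate 1, miR-182 (1.22, adjusted p = 0.0103), miR-96 (1.35, 0.0331), miR-182-x, miR-128-y and miR-128-z were called higher at 4 years, where 30.7% of all microRNAs were called either way. Without Y4Y replicate 3, miR-122 was called (1.31, 0.0379), where 3.68% of all were. miR-33a, with the TGCATTG seed, stood at 29.4, 23.0 and 26.1 CPM of microRNA counts at 6 months, at 6.70, 11.7 and 12.6 CPM at 18 months and at 13.2, 12.0 and 7.58 CPM at 4 years. The later ages did not overlap with 6 months, as for the counts of SREBF2, and it changed by -1.33 ± 0.30 and -1.25 ± 0.30 (edgeR adjusted p = 0.00507 and 0.00452). By FPKM, SREBF2 was lower at 18 months but higher at 4 years (15.3 ± 0.866, 12.7 ± 1.12 and 17.6 ± 0.884 by age), so the likeness holds for its counts alone. miR-33b had at most 8 counts in a library and was not tested. Scaling by library size alone raised the median log2 fold change of all microRNAs by 0.08 at 18 months and by 0.19 at 4 years, and it moved no call of miR-33a, miR-96, miR-182, miR-185 or miR-148a against 6 months.

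miR-96 and miR-182 rose in both comparisons. miR-182 stood at 11.0, 13.6 and 11.1 CPM at 6 months, at 116, 25.9 and 49.4 CPM at 18 months and at 87.4, 100 and 68.9 CPM at 4 years, with Y18M replicate 2 the lowest of the later libraries. Its changes were 2.41 ± 0.47 and 2.84 ± 0.47 (edgeR adjusted p = 0.00242 and 0.000583). miR-96 went from 1.34 to 2.42 CPM over the 6-month libraries up to 17.5 to 18.9 CPM at 4 years (3.33 ± 0.63, 0.00122), and at 18 months stood at 27.9, 3.66 and 11.3 CPM (2.94 ± 0.63, 0.00395). miR-185 rose from 231 ± 10.1 to 428 ± 62.6 and 404 ± 13.1 CPM (0.89 ± 0.16 and 0.81 ± 0.16, 0.00147 and 0.00144). miR-148a, the most counted of those printed, fell from 49915 ± 4062 to 19111 ± 2603 and 20878 ± 846 CPM (-1.39 ± 0.13 and -1.26 ± 0.13, 0.000161 and 6.61e-05).

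Of the 7 uptake and transport genes, 5 fell in both comparisons. SCARB1 (ENSBTAG00000014269), the receptor through which steroid-making cells take cholesteryl esters from high-density lipoprotein, stood at 557, 661 and 448 CPM at 6 months, at 15.7, 28.1 and 23.7 CPM at 18 months and at 23.0, 21.4 and 20 CPM at 4 years. Every later library lay far below every 6-month one, including Y18M replicate 2. It was 24.7-fold lower at 18 months (log2 -4.63 ± 0.28, adjusted p = 4.18e-05) and 25.9-fold lower at 4 years (-4.69 ± 0.28, 3.06e-05), the widest change of the 31 genes in both.

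APOA1 (ENSBTAG00000002258), the main protein of high-density lipoprotein, stood at 5245, 6831 and 7674 CPM at 6 months, at 270, 1461 and 585 CPM at 18 months and at 286, 297 and 349 CPM at 4 years. By FPKM it was the most abundant of the 31 genes at every age, at 5552 ± 963, 898 ± 749 and 338 ± 49.4. Y18M replicate 2 was the highest 18-month library, and none reached the 6-month range. It changed by -3.09 ± 0.56 at 18 months and by -4.41 ± 0.59 at 4 years (adjusted p = 0.00152 and 0.000223), and the 18-month change was -3.82 without Y18M replicate 2 (1.46e-05). APOA1 is best known from liver and intestine, and 5 liver markers were looked at beside it. ALB, APOA2 and APOB stood between 0.0457 and 3.15 CPM in the 9 libraries and TTR had no counts in any. SERPINA1 stood at 0.549 to 2.24 CPM at 6 months, 21.6 to 60.1 CPM at 18 months and 7.80 to 91.2 CPM at 4 years, so that the 5 summed to 1.86 to 5.62, 22.3 to 61.4 and 8.44 to 92.1 CPM. APOE (ENSBTAG00000010123), the ligand by which cells clear lipoprotein remnants, went from 1219, 1055 and 1303 CPM to 114, 254 and 235 CPM and to 181, 259 and 197 CPM. Its changes were -2.57 ± 0.32 and -2.49 ± 0.32 (0.000278 and 0.00019).

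NPC2 (ENSBTAG00000021955), the soluble lysosomal carrier that hands cholesterol to NPC1, stood at 414, 531 and 458 CPM at 6 months, at 51.6, 270 and 125 CPM at 18 months and at 54.4, 60.6 and 49.7 CPM at 4 years. The 18-month libraries were spread between the other ages, replicate 1 at the 4-year level and replicate 2 highest. Its changes were -1.65 ± 0.49 and -3.09 ± 0.51 (adjusted p = 0.0165 and 0.000658), and the 18-month call was lost without Y18M replicate 3 (0.0611) and with library size alone (-1.21, 0.068), while without Y18M replicate 2 the change was -2.29 (0.000218). NPC1 (ENSBTAG00000015195), the membrane protein that receives that cholesterol, did not follow. It ranged from 41.9 to 65.6 CPM at 6 months, from 52.3 to 68.1 CPM at 18 months and from 64.4 to 76.9 CPM at 4 years, with changes of 0.13 ± 0.21 and 0.34 ± 0.21 (0.607 and 0.17). It passed as higher with library size alone (0.53 and 0.63, adjusted p = 0.0413 and 0.0156), and at 4 years also by DESeq2 (0.52, 0.0462), in the fit of 6 libraries (0.46, 0.0347) and without Y18M replicate 2 (0.46, 0.0359).

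STARD4 (ENSBTAG00000045886), a cytosolic sterol carrier, was low, at 5.91 to 8.73 CPM at 6 months and 2.62 to 3.88 CPM at 4 years. Its changes were -1.13 ± 0.34 at 4 years (adjusted p = 0.0141) and -0.89 ± 0.34 at 18 months (0.0451). The 18-month call was lost when any library but Y18M replicate 2 was left out (adjusted p from 0.059 to 0.147), without the filter (0.0543), under the replicate block (0.0748) and in the fit of 6 libraries (0.0907), and the 4-year call without Y6M replicate 3 or Y4Y replicate 2 (0.0545 and 0.0581). With library size alone neither passed (0.3 and 0.0695). SOAT1 (ENSBTAG00000004059), which esterifies cholesterol for storage, stood at 101, 105 and 91.4 CPM at 6 months, at 109, 73.6 and 145 CPM at 18 months and at 78.8, 94.6 and 72.1 CPM at 4 years. The ages overlapped and neither change passed (0.14 ± 0.24 and -0.28 ± 0.24, 0.638 and 0.32), though without Y18M replicate 2 the 18-month one did (0.48, 0.0314).

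The log2 ratios of 4 pairs of related genes within a library were compared over the 3 ages. In such a ratio the scaling factor of the library cancels, apart from a prior count of 2. An exact permutation test of all 280 groupings was used, with the sum of squares between ages as its statistic. Its smallest possible p is 0.00357, and p values were adjusted over the 4 ratios. It asks whether the 3 ages differ and tests no single pair of ages. The log2 ratio of NPC1 to NPC2 was -3.30, -3.06 and -2.80 at 6 months, 0.40, -2.37 and -0.89 at 18 months and 0.50, 0.31 and 0.37 at 4 years (exact p = 0.0107, adjusted p = 0.0214). NPC1 thus had the higher CPM in every 4-year library, which is not corrected for length. Per length NPC2 stayed above NPC1 at every age, with 36.2 ± 2.66 against 15.6 ± 0.877 FPKM at 4 years and 242 ± 35.7 against 9.72 ± 2.46 FPKM at 6 months. The ratio of APOA1 to APOE was 2.11, 2.69 and 2.56, then 1.25, 2.53 and 1.31, then 0.66, 0.20 and 0.82 (0.0107 and 0.0214). The ratio of SREBF1 to SREBF2 was 0.31, 0.63 and 0.42 at 6 months, -0.35, 1.27 and 0.53 at 18 months and -0.89, -0.96 and -1.08 at 4 years (0.0357 and 0.0476). The 4-year libraries alone lay together below the rest. This ratio is not corrected for length either, and the count per FPKM of SREBF2 was lower at 4 years, as given above. By FPKM, SREBF1 went from 19.3 ± 2.06 at 6 months to 4.88 ± 0.686 at 4 years, and SREBF2 from 15.3 ± 0.866 to 17.6 ± 0.884. The ratio of INSIG1 to INSIG2 overlapped at all ages (means 4.71 ± 0.89, 4.59 ± 0.40 and 4.84 ± 0.38, exact p = 0.871). With 1 library fewer, the first 3 ratios lost the call for each 6-month or 4-year library left out (exact permutation test, adjusted p from 0.0619 to 0.0952). The ratio of SREBF1 to SREBF2 also lost it without Y18M replicate 3 (exact, adjusted p = 0.0667).

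**Figure D5:**
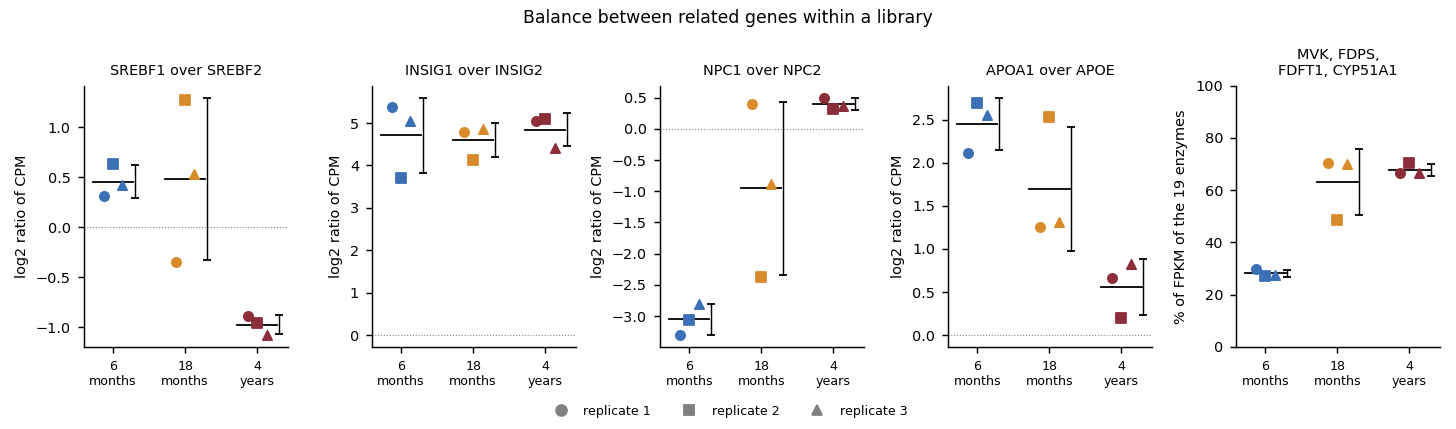
Log2 ratio of CPM for 4 gene pairs, and the percentage of the 19 enzymes' summed FPKM held by MVK, FDPS, FDFT1 and CYP51A1, in each library, with marker shape for the replicate number, mean bar and SD whisker (n = 3 per age). The NPC1 to NPC2 ratio is about -3.05 at 6 months and 0.39 at 4 years, and of the 18-month points Y18M replicate 2 sits closest to the 6-month ones for NPC1 to NPC2 and APOA1 to APOE.

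Between 4 years and 18 months none of the 31 genes was called by edgeR, where 0% of all genes rose and 0.00597% fell. At an unadjusted p under 0.05 there were 6 of 31, where 21.3% of all genes were. DESeq2 called 1 lower, SREBF1 (log2 -1.22, adjusted p = 0.0431), where it called 4.42% of all genes lower. The values farthest from 0 were -1.44 ± 0.48 for NPC2, -1.33 ± 0.39 for SREBF1, -1.31 ± 0.52 for APOA1, 1.02 ± 0.60 for CYP51A1 and -0.97 ± 0.36 for EBP (edgeR adjusted p = 0.179, 0.174, 0.205, 0.322 and 0.191). Without Y18M replicate 1 edgeR called 2 of the 31 higher and 8 lower, where it called 13.2% of all genes higher and 19.8% lower. HMGCS1 (1.25, adjusted p = 0.0158) and CYP51A1 (1.77, 0.0413) were the 2 higher at 4 years, and PMVK, MVD, LSS, NSDHL, EBP, SREBF1, NPC2 and APOA1 the 8 lower. That left replicates 2 and 3 as the 18-month group.

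Circular RNAs gave a second readout of the same genes, as back-splice reads. There were 106 circRNAs from 23 of the 31 genes, with 1047 reads at 6 months, 406 at 18 months and 312 at 4 years. These sums are not scaled. Libraries held 138535 to 169704 back-splice reads at 6 months, 184389 to 227150 at 18 months and 119786 to 196791 at 4 years. The SC5D circRNA described below holds 468 of the 1765 reads over all ages. FDPS, SREBF2, APOA1 and NPC2 were among the 8 genes with none listed. Of these, 5 had enough reads to test and none was called by edgeR, where 5.26% and 21% of 3877 circRNAs were called against 6 months and 0% between the later ages; at an unadjusted p under 0.05 there were 1, 2 and 0. The one with the most reads came from exons of SC5D (novel_circ_015003, chromosome 15, 31882308 to 31886095, plus strand; coordinates are as deposited, and whether they follow the cattle build UMD3.1 that the submitters' processing notes list was not settled). It had 152, 117 and 99 reads at 6 months, 2, 0 and 37 at 18 months and 29, 15 and 17 at 4 years. All later libraries lay below the 6-month ones, but the spread at 18 months was wide and the changes were -3.41 ± 1.22 and -2.22 ± 1.16 (edgeR adjusted p = 0.121 and 0.193).

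The circRNA of HSD17B7 (novel_circ_051747, chromosome 3, 6641144 to 6651318, minus strand) had 25, 30 and 19 reads at 6 months, 9, 13 and 6 at 18 months and 0, 7 and 0 at 4 years (4 years, -3.13 ± 1.05, adjusted p = 0.0589). The circRNA of SCARB1 (novel_circ_019978, chromosome 17, 50986166 to 50994447, plus strand) had 39, 28 and 23 reads, then 3, 13 and 0, then 0, 9 and 0. With a minimum of 10 reads in place of the filter, these 2 were called at 4 years (0.0488 and 0.0459) and that of SC5D at 18 months (-3.22 ± 0.83, 0.00738), where 7.07% and 2.88% of all circRNAs were called. The circRNA of HSD17B7 was also called at 4 years with library size alone (-3.39 ± 1.04, 0.0435) and without Y4Y replicate 2 (-7.55, 0.0228), which leaves no reads at that age, and that of SC5D at 18 months without Y18M replicate 3 (-6.85, 0.0385). Fitted values against ages at or near 0 reads depend on the prior count.

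Other genes around the pathway, from lists made with earlier results of these data known, moved less evenly. Over all genes tested, 27.1% fell and 32.7% rose at 18 months, and 37.2% fell and 36.7% rose at 4 years. Of 14 further genes of SREBP processing and sterol sensing, 7 fell and 3 rose at 18 months, and 7 fell and 1 rose at 4 years, with medians of -0.54 and -0.73. MBTPS1 and MBTPS2, the Golgi proteases that cut the SREBPs, changed by -1.49 ± 0.26 and -1.99 ± 0.30 at 18 months (adjusted p = 0.00125 and 0.000645). ERLIN2, which takes part in sterol-driven degradation, fell from 212 ± 14.3 to 37.7 ± 3.77 CPM at 4 years (-2.49 ± 0.27, 9.49e-05), and NR1H3, the oxysterol receptor LXR alpha, from 59.2 ± 6.68 to 16.3 ± 2.16 CPM (-1.86 ± 0.22, 0.00013).

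Of 16 fatty acid genes that SREBP-1 is known to control, 13 fell and 2 rose at 18 months, and 12 fell and 3 rose at 4 years. The desaturase FADS1 fell from 109 ± 14.8 to 13.3 ± 0.805 CPM at 4 years (-3.04 ± 0.21, adjusted p = 3.24e-05), and the elongase ELOVL6 from 14.0 ± 2.81 to 0.56 ± 0.0673 CPM (-4.63 ± 0.47, 7.3e-05). ACLY, which supplies cytosolic acetyl-CoA, fell by 1.80 ± 0.25 (0.000285). Of 12 genes of isoprenoid branches and related synthesis, 4 fell and 4 rose at 18 months, and 4 fell and 5 rose at 4 years. These counts lay near the shares over all genes tested. FNTA, a subunit of the enzymes that attach farnesyl and geranylgeranyl groups, rose from 56.5 ± 7.12 to 271 ± 29.7 CPM at 4 years (2.26 ± 0.37, 0.000579), and COQ2, of coenzyme Q synthesis, fell from 41.6 ± 6.53 to 4.97 ± 0.883 CPM (-3.06 ± 0.51, 0.000642).

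Of 16 tested genes of uptake, storage and transfer outside the 31, 9 fell and 2 rose at 18 months, and 11 fell and 3 rose at 4 years. LRPAP1, a chaperone of lipoprotein receptors, fell from 541 ± 83.7 to 118 ± 3.90 CPM at 4 years (-2.20 ± 0.19, adjusted p = 4.54e-05), and the receptor LRP1 from 423 ± 76.5 to 62.7 ± 3.12 CPM (-2.76 ± 0.45, 0.000571). LIPE, the lipase that frees cholesterol from stored esters, rose from 1.85 ± 0.223 to 130 ± 31 CPM (6.13 ± 0.83, 0.000236). Of 10 genes of steroid hormone synthesis from cholesterol, its supply and its control, 7 fell and 2 rose in both comparisons. CYP11A1, which cuts the cholesterol side chain, went from 572 ± 63.9 to 14.9 ± 4.20 CPM at 4 years (-5.27 ± 0.31, 3e-05), whereas the aromatase CYP19A1 rose from 0.19 ± 0.0332 to 52.0 ± 9.17 CPM (8.06 ± 0.57, 3.3e-05).

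Cell type markers moved with the ages as well, and their part in the results above was not tested. Of 7 Leydig markers, 6 of which are also among the steroid hormone genes above, 6 fell and 1 rose in both comparisons, and their summed level was 14567 to 21078 CPM at 6 months, 2548 to 5846 at 18 months and 2436 to 4350 at 4 years. Of 8 Sertoli markers 7 fell and 1 rose (5060 to 5684, 427 to 1325 and 349 to 408 CPM). All 6 fibroblast and interstitial progenitor markers fell (1830 to 2319, 138 to 474 and 142 to 162 CPM). Single genes carried much of the Leydig and Sertoli sums. At 6 months INSL3, a Leydig marker, stood at 9064 to 14649 CPM and INHA, a Sertoli marker, at 3760 to 4643 CPM. CLDN11, the Sertoli marker that rose, stood at 179 to 222 CPM at 4 years. All 7 meiotic markers rose (7.94 to 17.1, 579 to 1226 and 1111 to 1262 CPM), and all 8 spermatid markers rose. TSSK6 was at 0 in 2 of the 9 libraries, and ACR and ACRV1 each in 1, all at 6 months. Y18M replicate 2 had the highest 18-month sum of Leydig, Sertoli, fibroblast and myoid markers and the lowest of meiotic and spermatid markers.

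Macrophage markers summed to 341 to 550, 242 to 475 and 230 to 314 CPM, with 2 of 7 rising and 2 falling at 18 months and 2 rising and 4 falling at 4 years. Endothelial markers summed to 188 to 247, 134 to 197 and 160 to 165 CPM, with 4 of 5 falling and 1 rising in both. Of 5 peritubular myoid markers, 2 rose and 1 fell at 18 months, and 1 rose and 2 fell at 4 years (250 to 375, 171 to 766 and 176 to 200 CPM in sum). Of 5 undifferentiated spermatogonial markers, 2 rose and 1 fell in both (79.5 to 138, 95.4 to 277 and 81.1 to 93.4 CPM). The macrophage, myoid and spermatogonial counts at 18 months lay near the shares over all genes tested, 32.7% rising and 27.1% falling. At 4 years these shares were 36.7% and 37.2%. Of 4 tested adipocyte markers all rose, to at most 39.9 CPM in sum, with ADIPOQ at 0 in 4 libraries. Of 3 tested markers of epididymis and rete, EPCAM rose and the keratins KRT8 and KRT19 did not pass (8.87 to 23.7, 66.6 to 91.1 and 94 to 105 CPM in sum).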

How the data were processed

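Gene, circRNA and miRNA tables of 9 libraries each were used. The gene table holds an estimated count and an FPKM per library, per the file headers; 3137 of 22183 genes have a deposited count that is not whole, and counts were rounded here. The circRNA and miRNA tables hold deposited read counts, per the file headers, for 73679 circRNAs and 1536 miRNAs. HISAT2 2.1.0, StringTie 1.3.4 and fastp 0.18.0 are named, without a role, in the submitters' processing notes; how features were counted is not given in the sources used here. Libraries held 119786 to 227150 back-splice reads and 4249724 to 9682475 miRNA counts; this depth limits circRNA values most.

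Under R 4.3.3, edgeR 4.0.16 fitted each table once over its 9 libraries, with age as the factor and 6 residual degrees of freedom, with filterByExpr, TMM and the quasi-likelihood F-test, and p values were Benjamini-Hochberg adjusted over all features of the table that passed the filter. The script was tested on simulated data. Alternatives were DESeq2 1.42.0, library size alone, no filter, a replicate block, the 6 libraries compared, and each library left out. CPM in the text is on the TMM scale. Counts per FPKM needed 30 counts and 0.5 FPKM in every library.

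Replicate numbers name different animals and pair nothing. Whether animals of an age are related is not given, and p values weigh differences between ages against the spread between these animals. All 31 members are named, with up to 4 called genes of smallest p from each other list, of which part is printed, and the 5 circRNAs with the most reads, of which 3 are printed. The members and lists were chosen with earlier results of these data known. All members matched the yak RefSeq annotation (Bosgru_T2T1.0) by symbol, and 9 overlap another annotated gene. It was used for names and neighbours alone. The authors' tables of differing features and promoter sequences were not used here.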

Additional observations from a re-analysis of the deposited data

How the results depend on the processing

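The counts of genes that fell against 6 months ranged from 19 to 22 at 18 months and from 21 to 23 at 4 years over the alternatives run, with 21 and 22 under the replicate block, whose numbers pair no animals (correlations of deviations from -0.135 to 0.104). Of 837 log2 fold changes with 1 library left out, 778 kept their direction and side of the threshold, as did 434 of 465 under the other settings; for miRNAs these were 573 of 648 and 325 of 359. The cause of a change was not tested.

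Genes called higher were 2 at 18 months and 2 at 4 years with library size alone, where 41.4% and 41.8% of all genes were. At 4 years they were 2 by DESeq2, where 6844 of 16742 genes were, and 4 in the fit of 6 libraries, where 42.1% were. Between the later ages DESeq2 called 1 lower, where it called 4.42% of all genes lower. CircRNAs called were 1 at 18 months and 2 at 4 years with a minimum of 10 reads, where 2.88% and 7.07% of all circRNAs were. With library size alone 1 was called at 4 years. With 1 library left out, genes called higher ranged from 0 to 3 at 18 months, 0 to 4 at 4 years and 0 to 2 between the later ages. Those called lower between the later ages ranged from 0 to 8, and circRNAs called from 0 to 1 in both comparisons with 6 months. The highest gene counts against 6 months came without Y18M replicate 2, where 38.3% and 40.9% of all genes rose. Between the later ages they came without Y18M replicate 1, where 13.2% of all genes rose and 19.8% fell.

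Signs turned in these cases. With library size alone at 18 months, FDPS was 0.09, GGPS1 0.08, FDFT1 0.37, CYP51A1 0.13, INSIG2 0.01 and miR-27-z 0.05. At 4 years FDPS was 0.13, SOAT1 0.0086 and miR-128-x 0.18. Between the later ages SCAP was -0.07, APOE -0.05, miR-27b 0.09, miR-24-3p 0.003 and miR-185 0.03. FDFT1 at 18 months was 0.0075 without the filter, 0.12 by DESeq2 and 0.02 in the fit of 6 libraries. DESeq2 gave FDPS 0.02 and miR-128-x 0.03 at 4 years, and INSIG2 0.02, SCARB1 0.02 and miR-27b 0.03 between the later ages. miR-24-y at 18 months was -0.0049 without the filter, -0.0028 under the replicate block and -0.0077 by DESeq2. In the fit of 6 libraries, miR-27-z at 18 months was 0.12 and miR-128-x at 4 years 0.01.

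With 1 library left out, 18-month changes ranged from -0.51 to 0.15 for FDPS, -0.28 to 0.49 for FDFT1, -0.97 to 0.37 for CYP51A1, -0.05 to 0.37 for NPC1, -0.11 to 0.48 for SOAT1, -0.02 to 0.07 for miR-27-z and -0.09 to 0.23 for miR-24-y. At 4 years miR-128-x ranged from -0.06 to 0.33. Between the later ages the ranges were -0.07 to 0.15 for SCAP, -0.25 to 0.06 for INSIG2, -0.20 to 0.29 for APOE, -0.19 to 0.35 for FDPS, -0.05 to 0.59 for FDFT1, -0.38 to 0.11 for STARD4, -0.27 to 0.13 for SCARB1, -0.0036 to 0.47 for IDI1 and -0.20 to 0.01 for SC5D. For miRNAs they were -0.13 to 0.28 for miR-33a, -0.0096 to 0.20 for miR-24-y, -0.12 to 0.04 for miR-27b, -0.16 to 0.02 for miR-185, -0.0044 to 1.22 for miR-182, -0.14 to 1.35 for miR-96, -0.15 to 0.31 for miR-27a-5p and -0.35 to 0.02 for miR-27-x. The 4-year minus 6-month difference in log2 ratio ranged from -1.51 to -1.35 for SREBF1 to SREBF2, 3.32 to 3.57 for NPC1 to NPC2, -2.07 to -1.71 for APOA1 to APOE and -0.37 to 0.47 for INSIG1 to INSIG2.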
